A study of Mus musculus with 8 samples.

Results

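The collagen chain genes are the 44 protein-coding genes whose symbol is Col, a type number, the letter a and a chain number, chosen by symbol and biotype from the 52636 rows of the deposited gene table. They were divided by collagen type into 9 fibrillar chains (types 1, 2, 3, 5 and 11), 8 basement membrane chains (types 4, 15 and 18), 6 type VI chains and 21 others. Their levels were compared between 4 control and 4 exercise libraries of satellite cells (SCs), the stem cells that lie on skeletal myofibres. The mice were male C57B/6J animals aged 10 weeks. Control mice stayed sedentary, and exercise mice had 4 weeks of treadmill running, at 12 m/min, on 4 days per week and for 30 min per day. SCs were sorted from the tibialis anterior muscle as cells without CD45, CD11b, CD31 and Sca1 and with CD34 and integrin α7. Each library was made from the mRNA of about 800 sorted cells with a kit for single cells. For the sequencing data the study's legends give 4 mice, or 3 to 4 mice for single genes, without saying whether this is per group. The labels do not tie a library to a mouse, so p-values measure the spread between these libraries, which may be technical in part.

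Collagens are the main structural proteins of the extracellular matrix. Their chains wind around each other into a rope-like helix of equal or different chains, and the helix needs long repeats of glycine followed by any pair of residues. Fibrillar collagens form the tensile fibres of tendon and muscle connective tissue, basement membrane collagens form or bind the sheet that covers each myofibre and lies over the SC, and type VI collagen links that sheet to the surrounding fibres. In skeletal muscle most collagen is made by interstitial fibroblasts and tendon cells, while type V and type VI collagens are also known as parts of the SC niche.

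The glycine repeat can be read in the genes themselves, and 4 exons of 54 bases are shown as examples from the type I pair and from Col3a1 and Col5a2, which lie next to each other in the genome. Each begins with a glycine codon and holds 6 of them. The capitals mark the glycine codons (GGN), and each sequence is written 5′ to 3′ on the coding strand of GRCm38.
Col1a1 exon 8 of 51, chr11:94939904-94939957, plus strand: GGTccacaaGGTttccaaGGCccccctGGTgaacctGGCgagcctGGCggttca
Col1a2 exon 8 of 52, chr6:4515481-4515534, plus strand: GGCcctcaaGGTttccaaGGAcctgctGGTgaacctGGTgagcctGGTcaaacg
Col3a1 exon 6 of 51, chr1:45325360-45325413, plus strand: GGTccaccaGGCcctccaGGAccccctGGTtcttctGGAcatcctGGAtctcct
Col5a2 exon 6 of 54, chr1:45434892-45434945, minus strand: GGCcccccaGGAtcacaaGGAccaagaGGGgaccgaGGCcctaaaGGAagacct
The Col1a1 and Col1a2 exons matched at 42 of 54 bases, Col1a1 and Col3a1 at 35, Col1a2 and Col3a1 at 31, and the Col5a2 exon matched the other chains at 28 or 29. How reads that fit more than 1 chain were counted is not given in the sources used here.

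This structure set the collagen chains apart from other genes in the GENCODE annotation. Of 2004 coding exons of the 44 chains, 23.4% were exactly 54 bases long, against 0.444% of 197142 coding exons in 21857 other coding genes. Lengths that were a multiple of 9 bases, the length of 1 repeat, made up 61.8% of collagen exons and 14.0% of the others. The subgroups differed too. In the 9 fibrillar genes 45.3% of coding exons had 54 bases, against 7.83% in type VI and 4.24% in basement membrane chains. The longest unbroken run of repeats was 337 to 344 in the fibrillar chains, 30 to 66 in the basement membrane chains and 37 to 87 in the type VI chains, and Col26a1, the chain with the largest rise below, had 23.

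The deposited values are FPKM, the fragments of a gene over its length in kilobases and over a library size that the authors scaled between libraries. Whole reads could be recovered from them, and depth was 2339966 to 3013354 reads on genes in control libraries and 1011737 to 1200221 in exercise libraries. Reads fell on 4506 to 6430 of 22027 coding genes in control and on 2017 to 2883 in exercise libraries. The SC label was checked against its defining markers. Pax7 and Itga7, the gene of the sorted integrin α7, had no read in any of the 8 libraries, and Myf5 had 3 reads in control 2 and 1 in control 3. Some libraries stood apart or close together. Mitochondrial transcripts took 50.2% of reads in exercise 3 and 68.7% in exercise 4, against 2.09% to 15.3% in the other 6. Exercise 1 and 2 were closer than any other pair within a group, with a chi-square over its degrees of freedom of 3.86, where the other pairs within a group had 82.6 to 711. The share of reads in control 4 lay between those in control 1 and control 3 for 19 of 23 collagen chains with at least 10 reads in these libraries together, and that of exercise 3 lay between exercise 1 and exercise 4 for 14 of 14.

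Of the 44 chains, 31 had a read in at least 1 library and 13 had none. Of the 31, 22 had reads in both groups, 7 only in control libraries and 2, Col4a5 and Col11a2, only in exercise libraries. Some of these rest on few reads, as Col9a2 with 1 in control 2 and Col11a2 with 1 in exercise 2. Over all coding genes, 4506 to 6430 had a read in a control library and 2017 to 2883 in an exercise library. The share of all genes read in 1 group only was not computed. The chains without a read were Col2a1 of cartilage, Col10a1 of growth plate cartilage, Col17a1 and Col7a1 of the skin's attachment to its basement membrane, Col4a3, Col6a4, Col6a5, Col9a1, Col9a3, Col13a1, Col20a1, Col24a1 and Col25a1. A count of 0 allows up to 3 reads by counting error only, and amplified reads are not independent molecules. The number of chains with a read was 23, 22, 23 and 24 in control 1 to 4 and 21, 24, 19 and 11 in exercise 1 to 4. Exercise 4 was thus lowest and the other 7 libraries lay close together. Drawn to the same depth, the counts were 20 to 22.4 in control and 10.9 to 24.0 in exercise libraries.

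**Figure D1:**
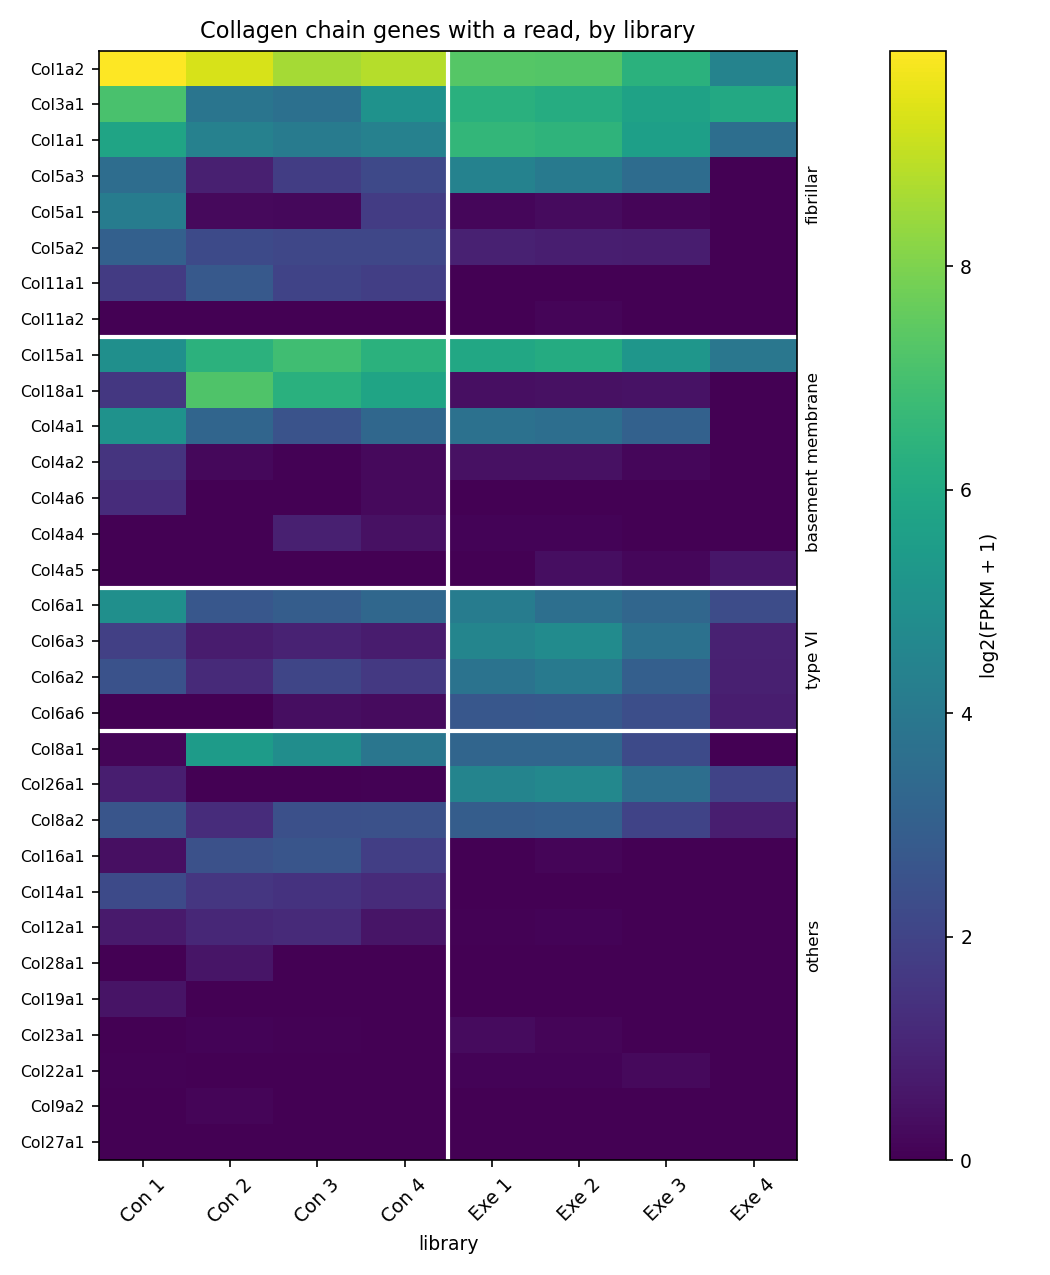
Level of the 31 collagen chain genes with a read, as log2(FPKM + 1) by color, in each of the 4 control (Con) and 4 exercise (Exe) libraries. Rows are grouped as fibrillar, basement membrane, type VI and others. Col1a2 is the brightest row in every library but exercise 4, where Col3a1 is, and the rows of Col6a2, Col6a3, Col6a6 and Col26a1 are brighter in exercise 1 to 3 than in any control library.

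Summed over the 44 chains, collagen signal was 1314, 987, 676 and 697 FPKM in control 1 to 4 and 517, 504, 285 and 119 FPKM in exercise 1 to 4. Every exercise library lay below every control library, with means of 918 ± 299 and 356 ± 191 FPKM (SD, n = 4 each), and the sum was not tested because its members were chosen with results known. The gap did not remain without Col1a2. The sums were then 342, 339, 288 and 244 FPKM in control and 360, 351, 204 and 98.2 FPKM in exercise libraries, and the groups overlapped. Collagen reads were 87.5 to 145 of every 10000 reads in control libraries and 74.2, 72.8, 23.9 and 2.75 in exercise 1 to 4. Without mitochondrial reads they were 103 to 148 in control libraries and 80.5, 78.7, 48.0 and 8.78 in exercise 1 to 4. In bulk libraries, fewer cells of a type and less of an RNA per cell cannot be told apart.

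The subgroups held different parts of this signal in the groups. Type VI chains made up 2.84%, 0.752%, 1.63% and 1.72% of collagen FPKM in control 1 to 4 and 11.1%, 11.8%, 11.3% and 5.40% in exercise 1 to 4. The type VI share was thus listed higher in every exercise library than in any control library, though in exercise 4 it rests on 12 type VI reads. The summed type VI level overlapped, at 37.3, 7.42, 11.04 and 11.96 FPKM in control 1 to 4 and 57.5, 59.5, 32.1 and 6.42 FPKM in exercise 1 to 4, where exercise 4 was the lowest of all and had the lowest collagen total. The fibrillar share was 62.9% to 91.2% in control and 64.7% to 79.1% in exercise libraries, and these overlapped. The basement membrane share was 5.10% in control 1, 20.8% to 29.4% in the other 3 control libraries and 12.4% to 15.7% in exercise libraries.

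**Figure D2:**
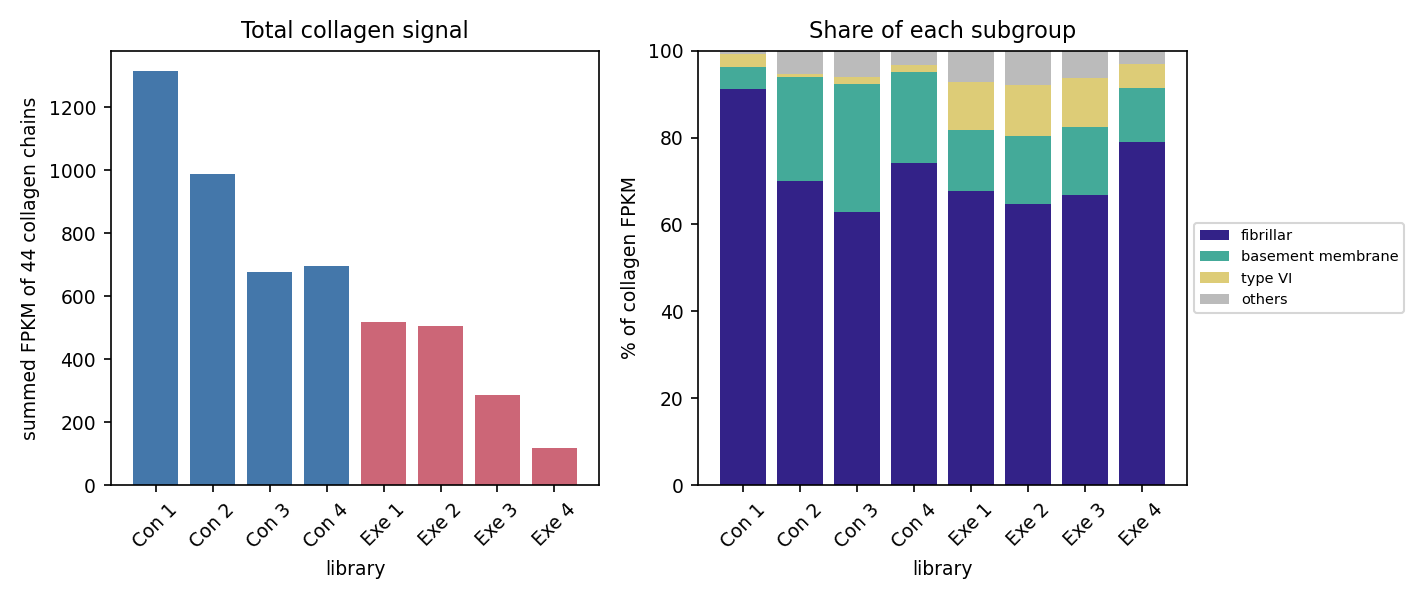
Left, summed FPKM of the 44 collagen chains in each library (blue, control; red, exercise). Right, the percent of that sum held by fibrillar, basement membrane, type VI and other chains. Totals run from 676 to 1314 FPKM in control and from 119 to 517 FPKM in exercise libraries, and the type VI band is wider in all 4 exercise libraries.

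To ask which chains differed after exercise, log2(FPKM + 1) was fitted with limma over the 4328 genes that averaged 1 FPKM or more, with Benjamini-Hochberg adjustment over all of them. Of the 44 chains, 19 passed this filter. Another 12 had reads but at most 1.78 FPKM in any library. Of the 19, 8 (42.1%) had an adjusted p under 0.05, where 35.6% of all genes tested did. Col26a1 and Col6a6 were higher in exercise libraries, and Col18a1, Col1a2, Col11a1, Col16a1, Col5a2 and Col14a1 were lower. The filter takes the mean of all 8 libraries, and each of these chains but Col1a2 passed it only through the group where it was high. Their means in the other group were 0 to 0.602 FPKM. How many of all genes passed in this way was not counted. Being called higher was the case for 2 of 19 chains and 8.78% of all genes, and being called lower for 6 of 19 and 26.8% of all genes. The same 8 chains were those whose groups did not overlap, which held for 31.6% of all genes (7.62% on the higher and 24.0% on the lower side). Each of the 8 reached p = 0.0286 in the exact permutation test (two-sided), the least possible with 4 libraries in each group. No read in any exercise library was the case for 2 of the 19, Col11a1 and Col14a1, and for 30.4% of all genes. The median log2 fold change was -0.83 over the 19 chains and -1.42 over all genes tested, so the chains are read against a general shift to lower values in exercise libraries. Under quantile normalization, which moved the median of all genes to -0.44, 4 of the 19 chains were called higher (Col26a1, Col6a6, Col6a2 and Col6a3) and 1 lower (Col18a1), where 13.1% of all genes were called higher and 8.66% lower.

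**Figure D3:**
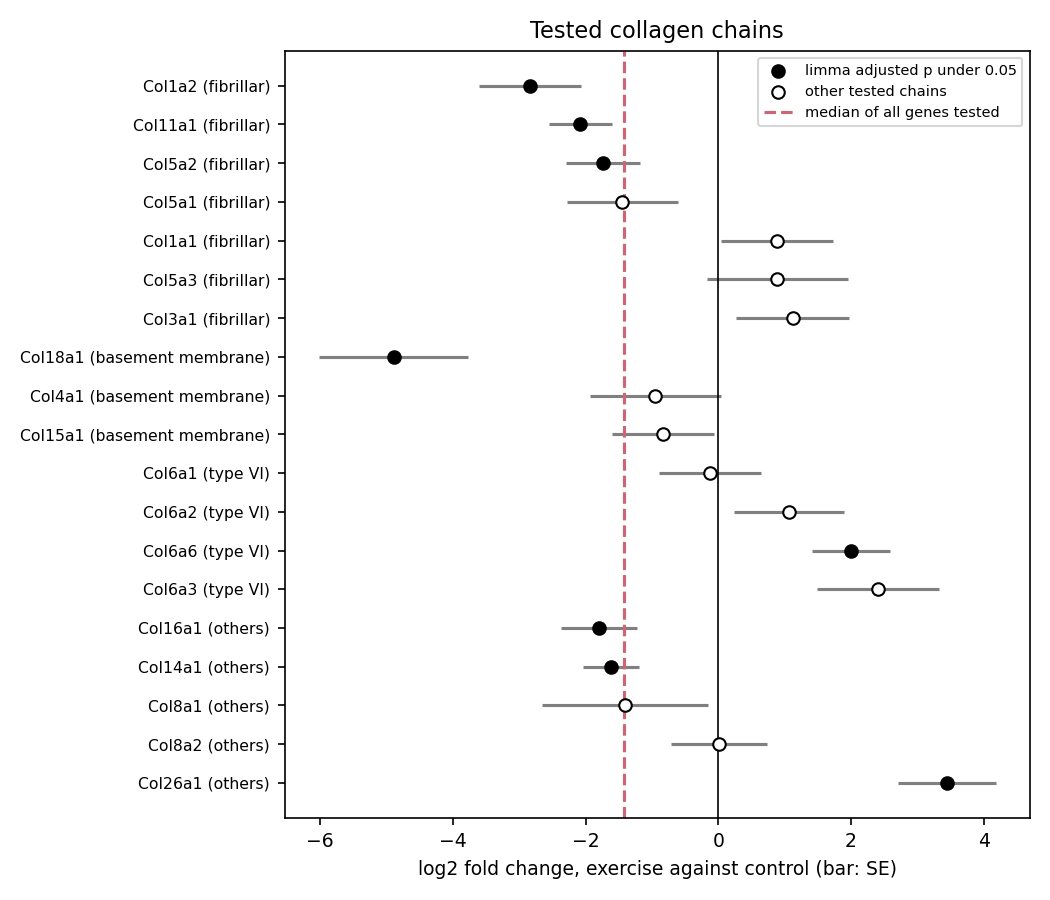
The log2 fold change of exercise against control on log2(FPKM + 1), with its SE from limma (bars), for the 19 tested collagen chains by subgroup. Filled points have an adjusted p under 0.05, and the dashed line is the median of all 4328 genes tested, -1.42. Col18a1 lies farthest to the left at -4.89 and Col26a1 farthest to the right at 3.45.

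The fibrillar chains did not move together. Of 7 tested, 3 fell (Col1a2, Col11a1 and Col5a2) and none rose at an adjusted p under 0.05, where 26.8% of all genes fell and 8.78% rose, with log2 fold changes from -2.84 to 1.12 and a median of -1.44. Col1a2, the smaller partner of type I collagen, the main protein of tendon and bone, was the most abundant collagen chain in 7 of 8 libraries. Its level was 972, 648, 388 and 454 FPKM in control 1 to 4 and 157, 153, 80.8 and 20.7 FPKM in exercise 1 to 4. Every exercise library was below every control library, with means of 615 ± 262 and 103 ± 65.0 FPKM (SD, n = 4 each), 5.99 times as high in control. These values rest on 18829 to 27705 reads in control and 74 to 3253 in exercise libraries. In limma its log2 fold change was -2.84 (SE 0.77, adjusted p = 0.0246), or -2.28 (adjusted p = 0.0593) under quantile normalization.

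Col1a1, the other partner of type I collagen and the one with more copies in the usual molecule, did not show this order. Its level was 55.3, 19.3, 16.6 and 19.6 FPKM in control 1 to 4 and 94.4, 85.8, 47.3 and 11.1 FPKM in exercise 1 to 4. Exercise 1 and 2 were above every control library and exercise 4 was below every control library. The log2 fold change was 0.89 (SE 0.85, limma adjusted p = 0.396).

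The balance within type I collagen therefore differed between the groups. Col1a1 held 5.38%, 2.89%, 4.11% and 4.14% of the FPKM of the pair in control 1 to 4 and 37.6%, 35.9%, 36.9% and 35.0% in exercise 1 to 4. The groups lay far apart, at 4.13% ± 1.01 and 36.3% ± 1.17 (SD, n = 4 each). Col1a2 exceeded Col1a1 by 17.6 to 33.5 times in control libraries and by 1.66 to 1.86 times in exercise libraries. A single size factor per library cancels in this share. Quantile normalization has no such factor, and under it the log2 fold changes of Col1a1 and Col1a2 were 1.84 and -2.28, while the share itself was not computed. In exercise 4 it rests on 95 reads, with a 95% Wilson interval of 25.0% to 46.5% that covers counting error only, and that whole interval lies above the control shares. The pair was picked out after its values were seen, as 1 of 9 pairs of partner chains compared, so no test is given.

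**Figure D4:**
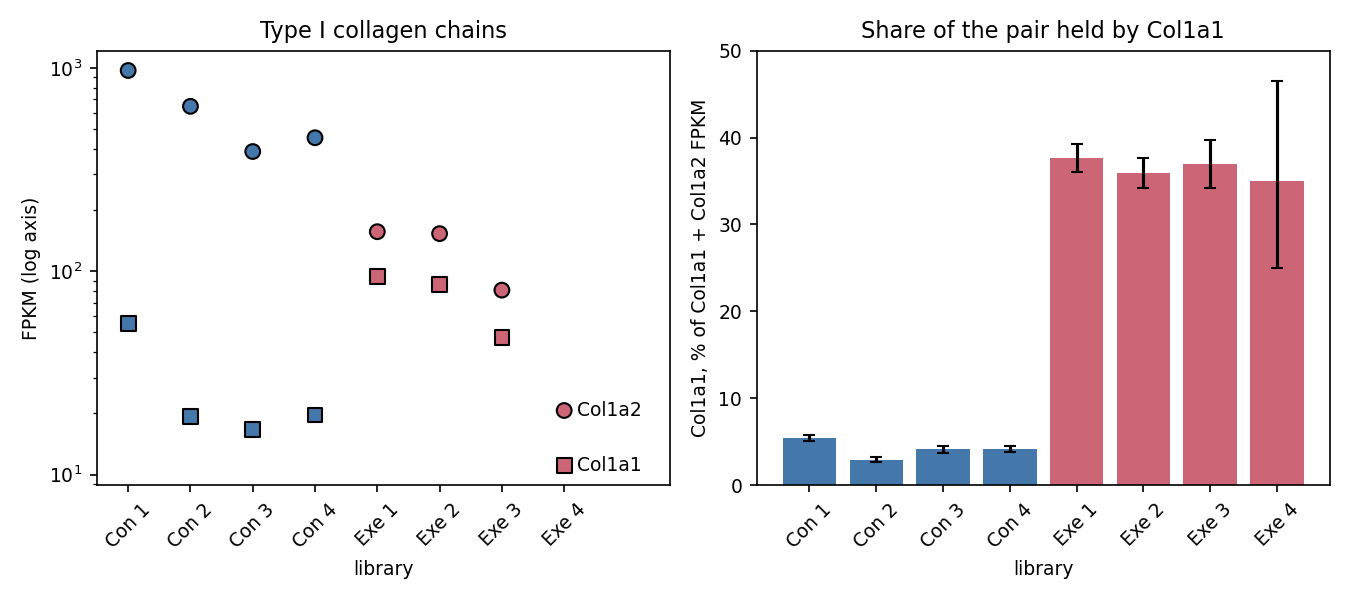
Left, FPKM of Col1a2 (circles) and Col1a1 (squares) in each library on a log axis (blue, control; red, exercise). Right, the percent of the pair's FPKM held by Col1a1, with 95% Wilson intervals from the reads of the pair. Col1a1 holds 2.89% to 5.38% of the pair in control libraries and 35.0% to 37.6% in exercise libraries.

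Col3a1, the chain of type III collagen, which makes thin fibres beside type I, was at 134, 13.6, 11.5 and 32.2 FPKM in control 1 to 4 and 77.5, 70.5, 51.1 and 62.2 FPKM in exercise 1 to 4. Control 1 was the highest library and the other 3 control libraries were the lowest. With all libraries the log2 fold change was 1.12 (SE 0.85, limma adjusted p = 0.285), and without control 1 it was 1.84 (adjusted p = 0.0276).

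The type V and type XI chains, which are built into type I fibres and set their thickness, were lower or unequal. Col5a2 was at 7.18, 3.75, 3.37 and 3.32 FPKM in control 1 to 4 and 0.873, 0.784, 0.752 and 0 FPKM in exercise 1 to 4. Its means of 4.40 ± 1.86 and 0.602 ± 0.405 FPKM (SD, n = 4 each) gave a log2 fold change of -1.74 (SE 0.56, limma adjusted p = 0.0386), which quantile normalization turned to 0.050 (adjusted p = 0.956). Col11a1 was at 2.33, 5.77, 2.98 and 2.56 FPKM in control 1 to 4, from 68 to 225 reads, and had no read in any exercise library. Both of these chains were lower in every exercise library than in any control library. With 3 reads allowed in each exercise library, Col11a1 was at least 10.3-fold lower in exercise on the mean of FPKM, and its fitted log2 fold change was -2.08 (SE 0.47, limma adjusted p = 0.0119), or -0.90 (adjusted p = 0.150) under quantile normalization. Gm38211, a gene model of uncertain coding status, overlaps Col5a2 on the same strand over 7217 bases, and it had at most 1.27 FPKM in control libraries and no read in exercise libraries.

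The remaining type V chains were not called. Col5a1, the common partner in type V molecules, varied widely among control libraries, from 0.151 FPKM in control 3 to 17.2 FPKM in control 1, and was at most 0.221 FPKM in exercise libraries (log2 fold change -1.44, SE 0.84, limma adjusted p = 0.173). Col5a3, a chain of a rarer type V form, was at 0.815 to 10.6 FPKM in control libraries and at 20.03, 15.6, 10.3 and 0 FPKM in exercise 1 to 4 (log2 fold change 0.89, SE 1.06, limma adjusted p = 0.496). Under quantile normalization the log2 fold change was -0.091 for Col5a1 (limma adjusted p = 0.929) and 2.26 for Col5a3 (adjusted p = 0.142). Of the FPKM of Col5a3 and Col5a2 together, Col5a3 held 17.9% to 59.5% in control libraries and 93.2% to 95.8% in exercise 1 to 3, while exercise 4 had no read of either chain. Col11a2, the partner of Col11a1 in cartilage, had reads in exercise 2 only, at 0.0917 FPKM.

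In the basement membrane group the 3 tested chains were all on the lower side on the deposited scale, though Col15a1 and Col4a1 turned to 0.031 and 0.33 under quantile normalization, and 1 of the 3, Col18a1, was called lower. Of all genes tested 68.3% were on the lower side and 26.8% were called lower. Col18a1, the heparan sulfate chain whose end fragment is endostatin, was at 2.05, 146, 77.1 and 55.0 FPKM in control 1 to 4 and 0.341, 0.357, 0.385 and 0 FPKM in exercise 1 to 4. The exercise values come from 4, 4, 3 and 0 reads, and control 1 was far below the other control libraries though above all exercise libraries. The log2 fold change was -4.89 (SE 1.13, limma adjusted p = 0.0128), and without control 1 it was -6.10. Slc19a1 overlaps Col18a1 on the opposite strand over 8825 bases, and it had at most 0.633 FPKM in control libraries and no read in exercise libraries.

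Col15a1, the related chain that binds basement membranes to the fibres around muscle, ranked 2 to 6 among the 44 chains in each library. It was at 29.5, 81.5, 116 and 80.4 FPKM in control 1 to 4 and 60.3, 67.0, 36.4 and 14.2 FPKM in exercise 1 to 4. The groups overlapped (log2 fold change -0.83, SE 0.77, limma adjusted p = 0.376). Col4a1, which with Col4a2 builds the network of every basement membrane, was at 32.2, 8.40, 4.87 and 8.94 FPKM in control 1 to 4 and 11.9, 11.2, 7.37 and 0 FPKM in exercise 1 to 4, and these overlapped as well (log2 fold change -0.95, SE 0.99, limma adjusted p = 0.432). Its log2 fold change without exercise 4 was -0.087 (limma adjusted p = 0.914). Col4a2 did not reach the filter. It held 0.788% to 5.23% of the FPKM of the Col4a1 and Col4a2 pair in control libraries and 1.82% to 3.28% in exercise 1 to 3. Both genes start from 1 stretch of chromosome 8, read in opposite directions, and their annotated genes overlap by 22 bases there. The 78 bases that their RefSeq promoter windows share on GRCm38.p6 are shown because both chains start there, with the CG-rich box GGGCGG, in capitals.
Col4a1 and Col4a2 shared stretch, chr8:11312777-11312854, plus strand: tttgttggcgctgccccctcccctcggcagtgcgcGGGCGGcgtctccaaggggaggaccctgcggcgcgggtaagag
The other tail of the type IV family was sparse. Col4a4, Col4a5 and Col4a6, the chains of kidney and other special membranes, reached at most 1.42 FPKM in a library, with Col4a6 read only in control libraries 1 and 4 and Col4a5 only in exercise libraries 2 to 4.

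Of the 4 type VI chains tested, Col6a6 rose and none fell at an adjusted p under 0.05, where 8.78% of all genes rose and 26.8% fell. Of the other 3, Col6a2 and Col6a3 were above 0 and Col6a1 below, and the median log2 fold change of the 4 was 1.53. Col6a6, a long chain that can stand in for the third chain of the molecule, was at 0, 0, 0.280 and 0.219 FPKM in control 1 to 4 and 5.55, 5.61, 4.23 and 0.757 FPKM in exercise 1 to 4. All exercise libraries were above all control libraries, although the value of exercise 4 comes from 2 reads. The log2 fold change was 2.0 (SE 0.58, limma adjusted p = 0.0312).

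Col6a3, the long chain that completes the usual type VI molecule, was at 2.70, 0.682, 0.921 and 0.692 FPKM in control 1 to 4 and 22.0, 27.0, 12.1 and 0.870 FPKM in exercise 1 to 4. Exercise 1 to 3 were above every control library, and exercise 4, with 3 reads, lay among them. The log2 fold change was 2.40 (SE 0.92, limma adjusted p = 0.0621) with all libraries and 3.26 (adjusted p = 0.00333) without exercise 4. Col6a2, a shorter chain of the same molecule, was at 4.71, 1.29, 3.17 and 2.17 FPKM in control 1 to 4 and 12.7, 15.4, 7.04 and 0.834 FPKM in exercise 1 to 4, so exercise 1 to 3 lay above and exercise 4 below every control library. Its log2 fold change was 1.07 (SE 0.82, limma adjusted p = 0.295), and 1.75 (adjusted p = 0.0409) without exercise 4. Col6a1 was at 29.9, 5.44, 6.67 and 8.88 FPKM in control 1 to 4 and 17.2, 11.4, 8.65 and 3.96 FPKM in exercise 1 to 4, and its groups overlapped (log2 fold change -0.12, or 1.22 under quantile normalization, SE 0.77, limma adjusted p = 0.902).

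The balance within type VI collagen also differed. Of the FPKM of Col6a3 and Col6a1 together, Col6a3 held 8.28%, 11.1%, 12.1% and 7.23% in control 1 to 4 and 56.1%, 70.2%, 58.4% and 18.01% in exercise 1 to 4. Against Col6a2 it held 36.4%, 34.5%, 22.5% and 24.2% in control 1 to 4 and 63.4%, 63.6%, 63.3% and 51.1% in exercise 1 to 4. Neither share overlapped between the groups, and exercise 4 rests on 8 and 5 reads of these pairs. As for type I, these pairs were read after their values were known and carry no test. Among the 9 partner pairs, the groups did not overlap in 4, the type I pair, Col5a3 with Col5a2, and the Col6a3 pairs. For Col5a3 with Col5a2 this holds for exercise 1 to 3 only, as exercise 4 had no read of either. The Col6a3 pairs share a chain, and how often other pairs of genes separate was not computed.

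Of the other chains, 5 were tested, of which Col26a1 rose and Col16a1 and Col14a1 fell, where 8.78% of all genes rose and 26.8% fell. Col26a1, a short chain first described in testis and ovary, was nearly absent from control libraries, at 0.800, 0, 0 and 0.0307 FPKM in control 1 to 4, and was at 21.4, 23.6, 10.9 and 2.97 FPKM in exercise 1 to 4. Behind these stand 15, 0, 0 and 1 reads in control and 293, 308, 99 and 7 in exercise libraries, and all exercise libraries were above all control libraries. It went from rank 18 or below among the 44 chains in every control library to rank 6 in every exercise library. The log2 fold change was 3.45 (SE 0.74, limma adjusted p = 0.00988).

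Col14a1 and Col16a1 belong to the collagens that sit on the surface of fibrils and join them to other matrix. Col14a1 was at 3.67, 1.96, 1.75 and 1.32 FPKM in control 1 to 4, from 37 to 59 reads, and had no read in any exercise library. With 3 reads allowed in each exercise library it was at least 3.63-fold lower in exercise, though in exercise 4 alone 3 reads would be 1.48 FPKM, above the level of control 4. Its fitted log2 fold change was -1.62 (SE 0.43, limma adjusted p = 0.0221), and under quantile normalization it was -0.53 (adjusted p = 0.267). Col16a1 was at 0.323, 4.50, 5.16 and 2.57 FPKM in control 1 to 4 and had 1 read in exercise 2 and none in the other exercise libraries (log2 fold change -1.80, SE 0.57, limma adjusted p = 0.0384). Under quantile normalization its log2 fold change was -0.58 (limma adjusted p = 0.363). In both chains every exercise library was listed below every control library. For Col16a1, 3 reads would be 0.401 FPKM in exercise 3 and 1.54 FPKM in exercise 4, above the level of control 1, so these libraries cannot be placed below it. Col12a1, which is close to Col14a1 in structure, lay under the filter at 0.478 to 1.28 FPKM in control and at most 0.0823 FPKM in exercise libraries.

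The type VIII chains, which form hexagonal lattices under endothelium, were not called. Col8a1 was at 0.0853, 42.3, 28.5 and 13.9 FPKM in control 1 to 4 and 8.43, 8.47, 3.71 and 0 FPKM in exercise 1 to 4 (log2 fold change -1.40, SE 1.25, limma adjusted p = 0.363). Col8a2 was at 5.15, 1.38, 4.34 and 4.53 FPKM in control 1 to 4 and 6.66, 7.12, 3.01 and 0.773 FPKM in exercise 1 to 4 (log2 fold change 0.01, SE 0.73, limma adjusted p = 0.992). Under quantile normalization Col8a1 was at -0.57 (limma adjusted p = 0.709) and Col8a2 at 1.72 (adjusted p = 0.111). Without control 1 the log2 fold change of Col8a1 was -2.56 (limma adjusted p = 0.0510). Within the pair Col8a2 held 98.4% in control 1 and 3.17%, 13.2% and 24.6% in control 2 to 4, and it held 44.1% to 45.7% in exercise 1 to 3, so the control shares lay on both sides of these.

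The spread among libraries of 1 group was itself uneven. Of the 19 tested chains, control 1 was the highest control library for 13 and the lowest for 5, and control 4 was the highest for none. The 5 chains lowest in control 1 were Col15a1, Col18a1, Col8a1, Col11a1 and Col16a1, and the 13 highest there included Col1a1, Col3a1, Col4a1, Col5a1 and all of Col6a1, Col6a2 and Col6a3. Exercise 4 was the lowest exercise library for 15 of the 19 chains and had no read for 9. Exercise 1 and 2 differed little, with ratios of 0.815 to 1.503 and a median of 1.01 over the 14 chains with at least 10 reads in each.

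The calls differed in how much they depended on single libraries. Col18a1 and Col26a1 kept an adjusted p under 0.05 in limma with each of the 8 libraries left out in turn, with highest values of 0.0436 and 0.0376. Col1a2 had an adjusted p of 0.0547 without control 2, 0.0642 without control 4 and 0.0687 without exercise 3. Col11a1 had 0.0513, 0.0504 and 0.0555 without exercise 1, 2 and 3. Col5a2 and Col6a6 lost their call without control 2, 3 or 4 and without exercise 1, 2 or 3, with adjusted p up to 0.0981 and 0.0893. Col14a1 fell under the filter without control 1, 2 or 3. It lost its call in 4 of the 5 such fits that it entered, those without control 4 and without exercise 1, 2 or 3, up to 0.0802. Col16a1 lost it in every such fit but the one without control 1, up to 0.103. With exercise 1 and 2 averaged as 1 sample, Col18a1, Col26a1, Col1a2 and Col11a1 were still called, and once control 4 and exercise 3 were dropped too none of the 19 was called by limma, 2 having an unadjusted p under 0.05.

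Collagen chains need a set of enzymes and chaperones in the endoplasmic reticulum, which hydroxylate proline and lysine, add sugars and keep the coil from unfolding. Of 22 genes on the list of this machinery, 21 were in the table, 15 had a read and 12 were tested. Of these 12, 5 rose (P3h3, Colgalt2, Sec23a, Serpinh1 and P3h4) and none fell, where 8.78% of all genes rose and 26.8% fell, with a median log2 fold change of 0.74 against -1.42 over all genes. P3h3, a member of the prolyl 3-hydroxylase family, was at 0, 0, 0.261 and 0.639 FPKM in control 1 to 4 and 276, 291, 128 and 18.5 FPKM in exercise 1 to 4 (log2 fold change 6.64, SE 0.93, limma adjusted p = 0.00149). P3h4, which binds P3h3 in the complex that hydroxylates lysine in collagen, had no read in control libraries and was at 9.34, 14.1, 4.56 and 0 FPKM in exercise 1 to 4 (log2 fold change 2.44, SE 0.82, limma adjusted p = 0.0442).

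Both of these genes were thus high in exercise 1 to 3 and at or near 0 in every control library, while exercise 4 was low. Colgalt2, which adds galactose to hydroxylysine, was at 0.616, 0, 0 and 0 FPKM in control 1 to 4 and 167, 188, 97.1 and 9.81 FPKM in exercise 1 to 4 (log2 fold change 6.08, SE 0.96, limma adjusted p = 0.0026). Sec23a, part of the coat of the vesicles that carry procollagen out of the endoplasmic reticulum, was at most 1.35 FPKM in control libraries and 33.0, 35.1, 21.2 and 5.02 FPKM in exercise 1 to 4 (log2 fold change 3.57, SE 0.76, limma adjusted p = 0.0098). Serpinh1, the collagen chaperone HSP47, was at 7.67, 4.01, 15.4 and 9.55 FPKM in control 1 to 4 and 110, 120, 59.1 and 11.4 FPKM in exercise 1 to 4 (log2 fold change 2.59, SE 0.88, limma adjusted p = 0.0457), and its groups overlapped because exercise 4 lay below control 3. Serpinh1 and P3h4 lost their call without any 1 of the libraries other than exercise 4, with adjusted p up to 0.116 and 0.109, while P3h3, Colgalt2 and Sec23a kept theirs in all 8 such fits. Some genes of the machinery were on the lower side, though none of them was called with all libraries. P4ha1, a catalytic chain of the prolyl 4-hydroxylase, was at 0.106, 388, 207 and 140 FPKM in control 1 to 4 and 14.97, 14.2, 8.99 and 3.37 FPKM in exercise 1 to 4, overlapping through control 1 alone (log2 fold change -2.55, SE 1.66, limma adjusted p = 0.218). Without control 1, P4ha1 (-4.47, adjusted p = 0.00133) and P4ha2 (-2.48, adjusted p = 0.000755) were called lower and Creb3l1 (1.24, adjusted p = 0.0399) higher, and without control 2 Crtap (-3.40, adjusted p = 0.0169) was called lower.

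**Figure D5:**
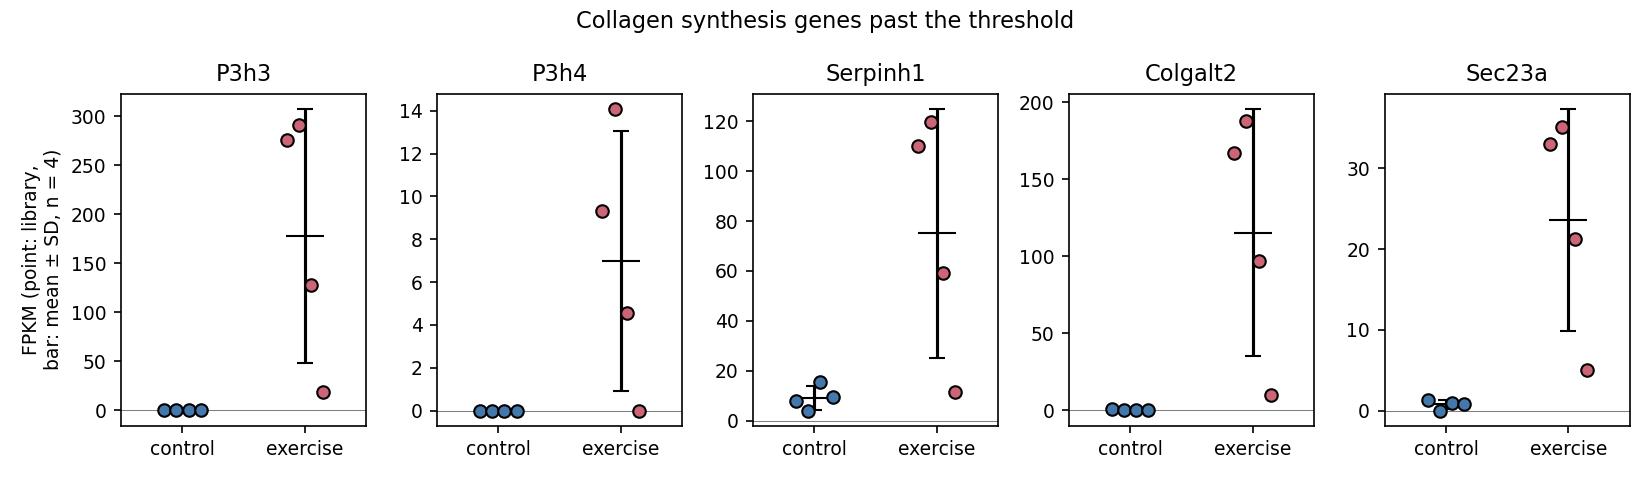
FPKM of the 5 collagen synthesis genes with a limma adjusted p under 0.05, P3h3, P3h4, Serpinh1, Colgalt2 and Sec23a, in control (blue) and exercise (red) libraries. Points are libraries and bars are mean ± SD (n = 4 each). Each gene has its own scale from 0, and the lowest exercise point in each is exercise 4.

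Outside the cell, collagen is trimmed, crosslinked and bound by receptors. Of 14 genes for trimming and crosslinking, 11 had a read and 9 were tested, and none had an adjusted p under 0.05 in limma. Their median log2 fold change was -0.17. The 2 most abundant were Sparc, a collagen-binding matrix protein, at 501 to 1003 FPKM in control and 1957, 1971, 1047 and 141 FPKM in exercise 1 to 4 (log2 fold change 0.37, SE 0.85, limma adjusted p = 0.737), and Pcolce, the enhancer of C-propeptide removal, at 23.4 to 186 FPKM in control and 13.6 to 122 FPKM in exercise libraries (log2 fold change 0.24, SE 0.96, limma adjusted p = 0.847). Of 10 collagen receptor genes, 7 had a read and 3 were tested, again with none called and a median of -1.45. The most abundant on the mean of all libraries were Itgb1, the common β chain of collagen-binding integrins, with log2 fold change -1.95 (SE 0.97, limma adjusted p = 0.129), and Mrc2, which takes up collagen for breakdown, with -1.45 (SE 0.97, limma adjusted p = 0.232). Ddr2, the other receptor tested, was on the higher side, with 1.05 (SE 0.64, limma adjusted p = 0.193). Its mean in exercise libraries, 2.60 FPKM, was above those of Itgb1, 0.949, and Mrc2, 0.353. At an unadjusted p under 0.05, 1 of the 9 and 0 of the 3 passed, and voom on the recovered reads called 0 in both lists. Without control 1, Itgb1 (-2.86, limma adjusted p = 0.00456) and Adamts2 of the trimming list (-2.45, adjusted p = 0.00109) were called lower. Without exercise 4, Ddr2 (1.57, limma adjusted p = 0.0438) was called higher.

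Markers of the cell types that could add collagen RNA to the gate were counted beside these results, and their part in them was not tested. Of 11 fibroblast markers 10 had a read, and their summed level was 3039 to 4680 FPKM in control and 3950 to 9725 FPKM in exercise libraries. Of the 9 tested, 2 were called higher (Lum and Gsn) and 1 lower (Mfap5), and most of the sum came from Dcn and Gsn. Of the defining markers, Dcn was at 1243 to 1900 FPKM in control and 1065 to 1581 FPKM in exercise libraries, Pdgfra at 9.44 to 35.0 and 2.42 to 7.99 FPKM, and Ly6a, the gene of the gated Sca1, at 0 to 8.94 and 0 to 7.44 FPKM. Lum was at 90.8 to 123 FPKM in control and 311 to 532 FPKM in exercise libraries, and Gsn at 1173 to 1540 and 1484 to 7201 FPKM. All 8 tendon markers had a read, with sums of 547 to 1060 FPKM in control and 243 to 1405 FPKM in exercise libraries. Scx, the transcription factor that defines tendon cells, was at 0, 0, 0.226 and 0.442 FPKM in control 1 to 4 and 101, 102, 49.2 and 3.05 FPKM in exercise 1 to 4. Of the 7 tendon markers tested, 1 was called higher (Scx) and 2 lower (Kera and Cilp2). Kera was at 5.28 to 27.9 FPKM in control libraries and had no read in exercise libraries, and Cilp2 was at 13.3 to 112 FPKM in control and at most 0.416 FPKM in exercise libraries. Tnmd, the other defining tendon marker, was at 233 to 731 FPKM in control and 69.2 to 774 FPKM in exercise libraries.

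The markers of other cell types were more mixed. All 8 myofibre markers had reads, with sums of 32676 to 56115 FPKM in control and 19592 to 59419 FPKM in exercise libraries. Of 12 SC markers 8 had a read, with sums of 6.82 to 46.5 FPKM in control and 32.6 to 122 FPKM in exercise libraries. Most of the exercise sums came from Sdc4 and Heyl, and Heyl, with no read in control libraries and 28.4, 27.2, 11.8 and 0.679 FPKM in exercise 1 to 4, was the 1 of 4 tested SC markers that was called, on the higher side. Vcam1, Myod1, Myf5 and Chrdl2 had reads in control libraries only, at no more than 1.44 FPKM. Of 8 endothelial markers 3 had a read, with the defining Pecam1 and Cdh5 at 0 everywhere, and the sums were 0.0925 in control 1 and up to 2994 FPKM in control 2, nearly all from Kdr, against 4.42 to 26.2 FPKM in exercise libraries, nearly all from Tek. These were the 2 endothelial markers tested, and Kdr was called lower and Tek higher, with Tek at most 0.0925 FPKM in control and 4.42 to 25.8 FPKM in exercise libraries. Control 1 was thus low in Kdr, as it was in Col18a1 and Col8a1. Smooth muscle and pericyte markers (3 of 7 with a read, Rgs5 at 0) summed to 2.88 to 46.1 FPKM in control and 5.72 to 89.3 FPKM in exercise libraries. Of the 3, the defining Myh11 was called higher, with no read in control libraries and 70.1, 71.5, 35.6 and 3.14 FPKM in exercise 1 to 4, whereas Acta2, not called, was at 43.3 and 35.1 FPKM in control 3 and 4 and at most 2.03 FPKM in exercise libraries. Of the 8 myofibre markers Myh1 was called lower. Sox10, a defining marker of Schwann cells, had no read in any library. None of 7 immune markers had a read.

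Promoters were read from RefSeq, as windows from 250 bases before to 50 bases after each start on GRCm38.p6, and 35 of the 44 chains had 38 windows. TATAAA was in 5 of the 38 (13.2%) and in 13.6% of all 32851 windows, and CCAAT in 13 (34.2%) and 37.4%. GGGCGG was in 23 (60.5%) and in 35.7% of all windows. Each motif was searched on both strands, and a match is a description of letters only. The windows of Col1a2 and Col11a1, which fell, and of Col6a6, which rose, are shown, with CCAAT and GGGCGG in capitals on either strand (ATTGG and CCGCCC on the other). None of the 3 held TATAAA.
Col1a2, chr6:4505368-4505667, plus strand: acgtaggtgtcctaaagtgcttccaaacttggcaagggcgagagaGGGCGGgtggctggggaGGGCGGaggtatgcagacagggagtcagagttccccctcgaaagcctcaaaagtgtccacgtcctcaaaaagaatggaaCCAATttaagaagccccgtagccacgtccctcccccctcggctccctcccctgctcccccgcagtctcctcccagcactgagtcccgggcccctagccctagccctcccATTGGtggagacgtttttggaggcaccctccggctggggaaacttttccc
Col11a1, chr3:114030290-114030589, plus strand: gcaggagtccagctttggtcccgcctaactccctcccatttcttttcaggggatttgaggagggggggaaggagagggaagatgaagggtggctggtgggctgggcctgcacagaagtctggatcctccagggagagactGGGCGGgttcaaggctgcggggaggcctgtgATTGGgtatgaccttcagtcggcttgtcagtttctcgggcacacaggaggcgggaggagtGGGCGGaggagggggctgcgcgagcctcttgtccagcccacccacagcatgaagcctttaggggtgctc
Col6a6, chr9:105828036-105828335, minus strand: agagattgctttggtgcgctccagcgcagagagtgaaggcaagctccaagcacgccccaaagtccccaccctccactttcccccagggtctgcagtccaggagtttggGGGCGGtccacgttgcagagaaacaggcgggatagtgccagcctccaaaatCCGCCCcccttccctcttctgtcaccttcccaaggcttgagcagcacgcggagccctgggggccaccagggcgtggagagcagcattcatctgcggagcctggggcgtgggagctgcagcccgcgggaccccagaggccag
Col1a2 held 2 CCAAT and 2 GGGCGG boxes, Col11a1 held 1 and 2, and Col6a6 held 0 and 2, so GGGCGG was in windows of chains that moved in either direction.

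Of the chains that are neighbours in the genome, Col3a1 and Col5a2 lie 24614 bases apart on chromosome 1 and are transcribed from opposite strands, and their log2 fold changes were 1.12 (limma adjusted p = 0.285) and -1.74 on the deposited scale and 1.91 and 0.050 under quantile normalization. Col6a1 and Col6a2 lie 85161 bases apart on chromosome 10 on 1 strand, with -0.12 and 1.07 on the deposited scale, neither called, and 1.22 and 2.69 under quantile normalization. The difference within a pair was not tested. Col6a6 on chromosome 9 is followed by Col6a5 and Col6a4, which had no read in any library.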

How the data were processed

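The authors deposited 1 table of FPKM for 8 libraries, each from about 800 sorted SCs. Per the methods and the submitters' processing notes, the authors mapped reads with Bowtie 0.12.9 (mm10), computed FPKM with Cufflinks 2.1.1 and counted reads with HTSeq. In the table the authors' FPKM times gene length gave whole multiples of 1 step in every library (tolerance 0.001), so reads were recovered, at 1011737 to 3013354 per library. The library size in the deposited FPKM is a median-of-ratios size factor, not the read total.

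Groups came from the labels, and rows that share a symbol were summed. The limma package (3.58.1, under R 4.3.3, with lmFit and a trend in eBayes) tested log2(FPKM + 1) of genes averaging 1 FPKM or more, with Benjamini-Hochberg adjustment over 4328 genes. This scale understates changes of low genes. Single chains also had exact two-sided permutation tests over 70 assignments. Shares and sums were computed in Python 3.11.15. The fit was tested on simulated data.

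Values by library are given for tested chains with an adjusted p under 0.05 or among the 3 most abundant of their subgroup. Of the remaining chains with reads, some are given by range and others only by the joint upper limit of the chains under the filter. Col5a1, Col5a3, Col12a1 and the sparse chains were added after their values were seen. Of the synthesis, processing and receptor lists, called genes and the 2 most abundant are named. The members, lists and markers were chosen with earlier results of these data known, so no list or sum has a p.

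All 44 chain identifiers were in GENCODE vM21 (GRCm38), 43 with the same coordinates. Exons come from it and promoters from RefSeq. The alternatives were another pseudocount, other filters and scalings, no trend, a replicate block, each library left out, exercise 1 and 2 averaged, the same with control 4 and exercise 3 left out, voom on the recovered reads, and equal depth. The summed level of the Schwann cell markers is not reported here.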

Additional observations from a re-analysis of the deposited data

Results flagged for a closer look

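Each chain's 4 values in a group, on log2(FPKM + 1), and 9 summary measures were checked for a library far from the other 3 of its group (Dixon's gap over range, past its 95% critical value). Of 56 groups checked, 11 had such a library. Chance flags about 1 in 20 groups, or 2.8 of these, and the values of 1 library are not independent of each other.

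Control 1 stood above the other control libraries for 4 chains. Col1a1 was at 5.81 there against 4.14 to 4.37, Col5a2 at 3.03 against 2.11 to 2.25, Col6a3 at 1.89 against 0.75 to 0.94, and Col26a1 at 0.85 against 0 to 0.04. Col8a2 was at 1.25 in control 2, below 2.42 to 2.62 in the other control libraries.

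Of the 6 tested chains read in exercise 1 to 3 but not in exercise 4, 3 met this measure. Col4a1 was at 0 there against 3.07 to 3.68, Col5a2 at 0 against 0.81 to 0.91, and Col18a1 at 0 against 0.42 to 0.47, the latter from 3 or 4 reads. In exercise 4 the type VI share of collagen FPKM was 5.40% against 11.1% to 11.8%, and the most abundant chain held 52.3% of it, as Col3a1, against 28.4% to 30.4%, as Col1a2, in exercise 1 to 3. Col16a1 was at 0.13 in exercise 2, from 1 read, and at 0 in the other exercise libraries.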

How the results depend on the processing

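Over 33 results, 510 values were recomputed, and 379 kept both direction and side of the threshold or stayed near the main value. For the 8 called chains, 146 of 147 values kept the direction and 91 stayed past the threshold. The exception was Col5a2 under quantile normalization (0.050). The main counts were 2 chains higher and 6 lower, and 380 genes higher and 1161 lower. With no filter they were 1 and 3 chains, and 234 and 606 genes. With at least 1 FPKM in 4 libraries they were 1 and 5 chains, and 323 and 798 genes. Under quantile normalization they were 4 and 1 chains, and 566 and 375 genes. With exercise 1 and 2 averaged they were 1 and 3 chains, and 179 and 424 genes, and once control 4 and exercise 3 were dropped too all were 0 in limma, with 465 genes and 2 chains at an unadjusted p under 0.05. Leaving out each library gave 1 to 4 chains higher and 1 to 5 lower, and 164 to 568 genes higher and 360 to 1503 lower.

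Same-numbered libraries shared only a number (correlation of deviations -0.02, 0.04, 0.02 and 0.02 for numbers 1 to 4, and control 2, 3 and 4, but not control 1, correlated best with their own number). With the replicate block 1 chain was higher (Col26a1) and 2 lower (Col18a1 and Col1a2), and 270 and 789 genes. The block left 3 genes higher in the synthesis list, against 5 in the main fit.

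Uncalled chains turned sign under some settings. Quantile normalization gave Col15a1 0.031, Col6a1 1.22 and Col4a1 0.33. Leaving out each library gave Col6a1 -0.40 to 0.37 and Col8a2 -0.30 to 0.47. Col8a2 was -0.067 with a pseudocount of 0.1, -0.070 scaled to read totals, -0.25 with exercise 1 and 2 averaged, -0.19 once control 4 and exercise 3 were dropped too, and -0.41 in voom. The causes of these changes were not tested. Genes higher in the synthesis list were 3 to 5 with each library left out and 0 with averaged and left out libraries, and genes lower were 0 to 2. In the processing list 0 to 1 were lower, and in the receptor list 0 to 1 were higher and 0 to 1 lower, with each library left out. At equal depth control libraries held 21.2 chains with a read on average, against 23.

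Depth limits the low chains. In exercise 4, 3 reads are worth 0.817 to 2.38 FPKM over the 19 tested chains, so values there near 1 FPKM could not be told from 0.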
